A study of Mus musculus with 12 samples.

Results

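The Src family are membrane-anchored tyrosine kinases, and the genes described here are Blk, Lyn, Fyn, Fgr, Lck, Src and Yes1 of that family together with Csk, the kinase that holds them inactive. These 8 genes were chosen by name, and every probe whose platform gene symbol, current or as a synonym, was one of them was read in all samples. Of the 8 genes, 6 were represented, by 14 of the 45281 probes (3 each for Blk, Fyn and Src, 2 each for Fgr and Yes1, and 1 for Csk), among 19057 annotated genes. Lyn and Lck had no annotated probe and were not analysed here.

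The RNA came from embryonic fetal liver of C57BL/6 mice, from progenitor B cells, and was hybridised to 12 single-colour Illumina bead arrays, 3 for each of 4 groups. In the loss experiment, Sox4fl/fl SE-Cre cells (called SE-Cre here) were compared with Sox4fl/fl cells, whose Sox4 gene is floxed but carries no Cre. In the gain experiment, cells labelled HA-Sox4 were compared with cells labelled HA. Both of these groups had the Sox4fl/fl SE-Cre genotype and had been immortalized by p190 Bcr-Abl, a leukaemia oncogene that is itself a tyrosine kinase. SE-Cre was always paired with floxed Sox4, so that effects of SE-Cre and of Sox4 loss cannot be told apart. The labels do not give the promoter that drives SE-Cre, whether the immortalized groups share a culture, or whether replicates were separate animals. The p-values therefore describe the variation among these samples only, and that variation may be technical.

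Src family kinases phosphorylate the tyrosine motifs of antigen receptors and so start their signal. In mouse progenitor B cells Blk, Fyn and Lyn are known to act redundantly downstream of the pre-B cell receptor, the immature receptor made of an immunoglobulin heavy chain, surrogate light chain and the Cd79 signalling pair. Csk phosphorylates a tyrosine in the tail of each family member, which closes the kinase, and phosphatases such as Ptprc (CD45) remove that phosphate.

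The targeted gene was read first. Values are log2 normalised intensities, a probe counts as detected on an array where its detection p-value was under 0.05, and p-values are adjusted over all tested probes. The brighter Sox4 probe stood at 4.60, 4.65 and 4.27 in SE-Cre cells, where 1 of 3 arrays detected it, against 10.67, 10.55 and 10.60 in Sox4fl/fl cells. That fall was 68.7-fold, or 18.4-fold without background correction. The same probe read 5.96, 5.14 and 5.32 in HA-Sox4 cells, detected on 3 of 3 arrays, against 4.53, 5.0 and 4.51 in HA cells, none of which detected it. That rise was at least 1.18-fold. The fitted log2 difference of 0.79 (adjusted p = 0.0326) lost its call without HA replicate 1 or 3, and it could not be tested when a HA-Sox4 array was left out. The sources used here do not say whether the probe covers the introduced copy. Of 12 pro-B cell marker genes with a probe, 11 were detected on every array of SE-Cre, Sox4fl/fl and HA cells and 12 on every HA-Sox4 array. The exceptions were Dntt, detected on no SE-Cre and no HA array, and Pax5, detected on no Sox4fl/fl array.

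Blk, a family member whose expression is largely confined to the B lineage, was the member that moved most, and it was lower in both experiments. Its brightest probe, ILMN_2976441, read 5.90, 6.47 and 6.57 in SE-Cre cells, against 9.15, 9.06 and 9.04 in Sox4fl/fl cells. The highest SE-Cre array lay far below the lowest Sox4fl/fl array, and all 6 arrays detected the probe. The mean was 6.31 ± 0.36 in SE-Cre and 9.08 ± 0.06 in Sox4fl/fl cells (SD, n = 3 each), a log2 difference of -2.77 (SE 0.18, 95% confidence interval -3.16 to -2.38) or a 6.83-fold fall. The adjusted p over all probes was 4.58e-07 in limma's moderated test. In bulk RNA, fewer cells that express a gene and less RNA per cell cannot be told apart.

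In the gain experiment Blk was again lower in the cells labelled HA-Sox4. The same probe read 6.41, 6.40 and 5.96 in HA-Sox4 cells, against 8.88, 8.72 and 8.61 in HA cells, again with no overlap and detected on every array. The means were 6.26 ± 0.26 in HA-Sox4 and 8.74 ± 0.14 in HA cells (SD, n = 3 each), and the log2 difference was -2.48 (SE 0.15, 95% confidence interval -2.83 to -2.14, adjusted p = 2.05e-05), a 5.59-fold fall. Without background correction the falls of Blk were 4.13-fold in SE-Cre and 2.94-fold in HA-Sox4 cells.

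The fall was visible before any normalisation. Non-normalized intensities of the brightest Blk probe were 122.6, 154.6 and 155.8 on the SE-Cre arrays, against 689.8, 640.7 and 526.6 on the Sox4fl/fl arrays. On the HA-Sox4 arrays they were 213.7, 187.3 and 171.1, against 621.7, 443.1 and 482.4 on the HA arrays.

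The other probes of Blk did not all see it. ILMN_2976440 read 5.34, 5.19 and 5.57 in SE-Cre cells, against 7.59, 7.70 and 7.87 in Sox4fl/fl cells, a log2 difference of -2.35 (SE 0.15, adjusted p = 4.77e-07). It read 5.41, 4.91 and 6.13 in HA-Sox4 cells, 2 of 3 arrays detecting it, against 7.61, 8.07 and 7.44 in HA cells, a log2 difference of -2.22 (SE 0.31, adjusted p = 0.00144). Neither pair of groups overlapped on this probe. ILMN_2697505 was too dim to be tested within either experiment, at 4.15 to 4.28 in SE-Cre and 4.30 to 4.66 in Sox4fl/fl cells, and at 4.48 to 4.76 in HA-Sox4 and 4.51 to 5.48 in HA cells. It was detected on 0 of 3 SE-Cre, 2 of 3 Sox4fl/fl, 0 of 3 HA-Sox4 and 1 of 3 HA arrays. The position of the 3 probes in the Blk transcript is not stated in the labels or files.

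**Figure D1:**
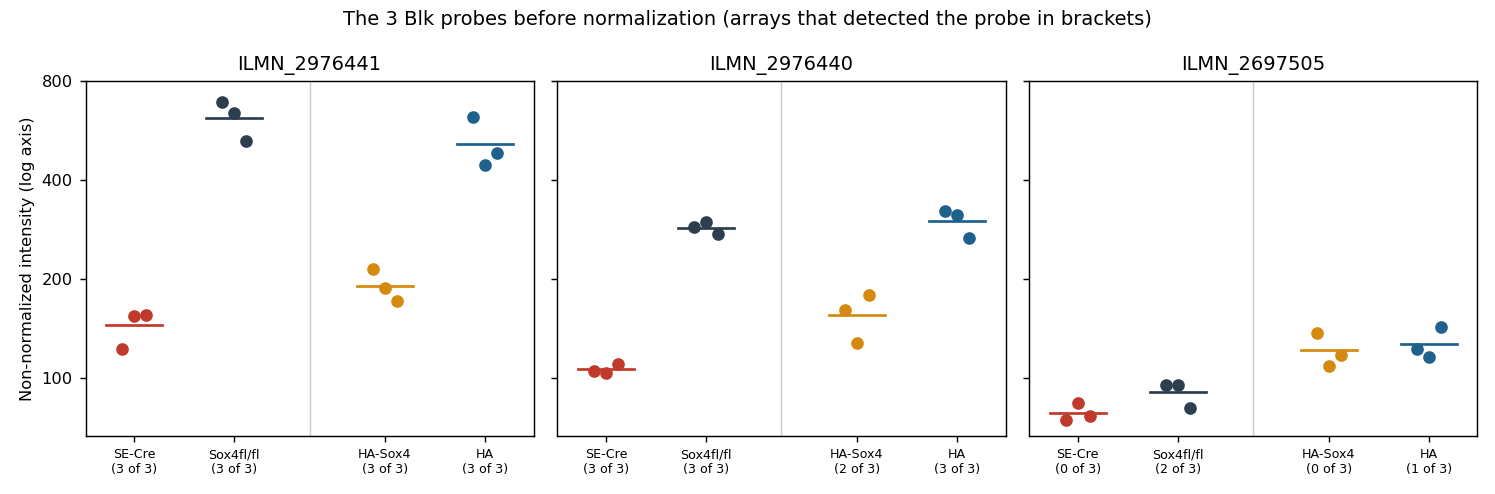
Non-normalized intensity (log axis) of the 3 Blk probes on the 12 arrays. Points are arrays, bars are group means, and brackets give the arrays of 3 that detected the probe. On ILMN_2976441 and ILMN_2976440 every SE-Cre array lies below every Sox4fl/fl array and every HA-Sox4 array below every HA array, and ILMN_2697505 stays near background in all groups.

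Blk was then placed among all genes. In SE-Cre cells 16.4% of 8944 tested genes passed the threshold of adjusted p under 0.05, with 670 (7.49%) higher and 799 (8.93%) lower. That split was 425 higher and 872 lower when arrays were scaled to a common median, and the count of 1469 genes was 966 without Sox4fl/fl replicate 1 and 941 without Sox4fl/fl replicate 2. In HA-Sox4 cells 44.2% of 9249 genes passed, 1972 (21.3%) higher and 2113 (22.8%) lower. Of the 8278 genes tested in both experiments, which share no arrays, 84 (1.01%) were lower in both SE-Cre and HA-Sox4 cells. A further 89 (1.08%) were higher in both, 460 (5.56%) were lower in SE-Cre and higher in HA-Sox4 cells, and 307 (3.71%) were higher in SE-Cre and lower in HA-Sox4 cells. Rag1, a recombinase gene, was lower in SE-Cre and higher in HA-Sox4 cells, with log2 differences of -3.47 (11-fold) and 4.23 (18.7-fold), or 4.78-fold and 10.3-fold without background correction. Among the 84 genes, Blk ranked 2 by its fall in SE-Cre and 3 by its fall in HA-Sox4 cells. It was the one gene of the 84 at least 4-fold lower in both, a limit chosen after its values were seen, and one that Blk missed in HA-Sox4 cells without background correction. Over all tested genes it ranked 32 of 8944 by fall in SE-Cre and 27 of 9249 in HA-Sox4 cells.

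**Figure D2:**
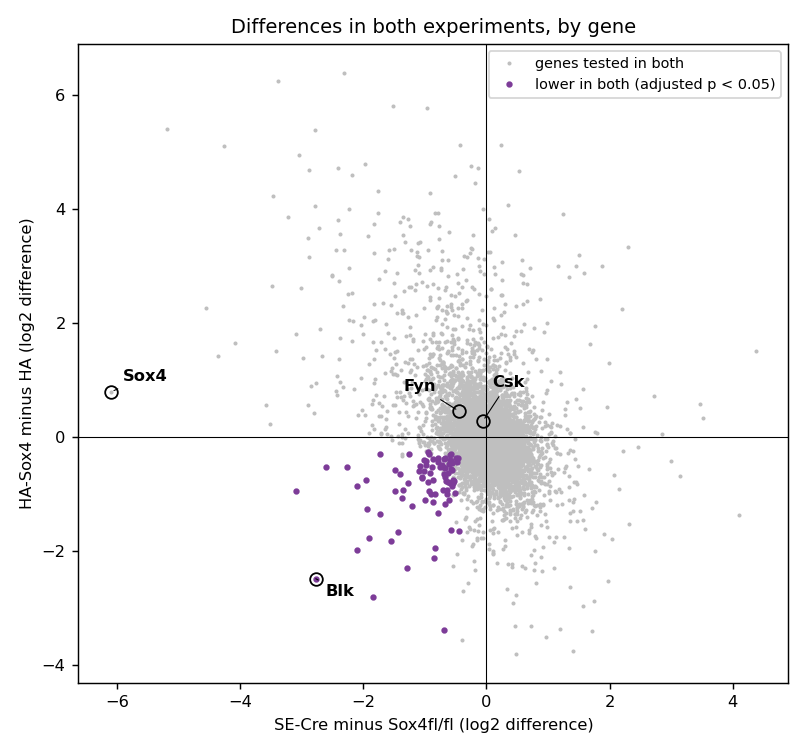
Log2 difference SE-Cre minus Sox4fl/fl (horizontal) against HA-Sox4 minus HA (vertical) for the 8278 genes tested in both. Coloured points are the 84 genes lower in both, and circles mark Blk, Fyn, Csk and Sox4. Blk lies at -2.77 and -2.48, Fyn and Csk lie close to the origin, and Sox4 lies at -6.10 and 0.79.

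The difference between the experiments was tested on 12 arrays normalized together, as the HA-Sox4 minus HA difference less the Sox4fl/fl minus SE-Cre difference, which is 0 where these differences are equal. In that contrast 19.9% of 10259 genes passed, 10.8% above and 9.09% below 0. Blk stood at -5.23 (SE 0.25, 95% confidence interval -5.76 to -4.69, adjusted p = 9.98e-09), since Sox4fl/fl cells had more Blk than SE-Cre cells and HA-Sox4 cells had less Blk than HA cells. ILMN_2976440 gave -4.48 (SE 0.33, adjusted p = 5.92e-07), and the dim ILMN_2697505 gave -0.77 (SE 0.27, adjusted p = 0.0705). No other member passed this test on all 12 arrays. The values were 0.02 (SE 0.26, adjusted p = 0.968) for Fyn, 0.67 (SE 0.31, adjusted p = 0.175) for Src and 0.22 (SE 0.14, adjusted p = 0.333) for Csk. Src passed narrowly without SE-Cre replicate 2 (0.92, adjusted p = 0.0499).

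Among the paralogs, Fyn, a broadly expressed member that also acts in T cell and neuronal signalling, was the only other family kinase detected on all 12 arrays. Its brightest probe read 7.18, 7.32 and 7.51 in SE-Cre cells, against 7.48, 7.65 and 8.22 in Sox4fl/fl cells. The groups overlapped, and the log2 difference of -0.45 (SE 0.19, 95% confidence interval -0.87 to -0.03, adjusted p = 0.149) did not pass. In the gain experiment it read 8.76, 8.53 and 8.69 in HA-Sox4 cells, against 8.23, 7.95 and 8.42 in HA cells, which did not overlap. That was a rise of 1.38-fold (log2 difference 0.46, SE 0.13, adjusted p = 0.0312). The rise lost its call when HA replicate 1, HA replicate 2, HA-Sox4 replicate 1 or HA-Sox4 replicate 3 was left out. A second Fyn probe, ILMN_2912082, gave 0.06 (SE 0.23, adjusted p = 0.857) in the same comparison, and ILMN_2663821 was detected on no array.

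Src itself, the founding member of the family, was near background. Its brightest probe, ILMN_3148543, was detected on 3 of 3 HA-Sox4 arrays, at 5.49, 5.63 and 5.37, and on 1 of 3 HA arrays, at 5.31, 4.94 and 4.71. The log2 difference of 0.51 (SE 0.16, adjusted p = 0.0395, 1.42-fold) passed, but it was 0.16 (adjusted p = 0.0754) without background correction. It also lost its call when HA replicate 2, HA replicate 3 or any 1 of the HA-Sox4 arrays was left out. In the loss experiment this probe read 4.44, 4.24 and 4.89 in SE-Cre cells, 1 of 3 arrays detecting it, against 4.51, 4.32 and 4.24 in Sox4fl/fl cells, where none did, and it was not tested. The other Src probes were not detected on any array.

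Fgr, a member known mainly from myeloid cells and mature B cells, and Yes1, a widely expressed member, were not tested in either experiment. The Fgr probe ILMN_1244821 was detected on 1 of 3 HA-Sox4 arrays, at 5.32, and on no other array. The second Fgr probe and both Yes1 probes were detected on none of the 12 arrays, with values between 4.16 and 4.80 for Fgr ILMN_2772595. At this signal over background a difference in Fgr or Yes1 was not detectable, which does not show its absence. Frk, Srms and Ptk6, more distant relatives of the family, were not detected on any array either.

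Csk, the kinase that phosphorylates the inhibitory tail tyrosine, was detected on all 12 arrays by its 1 probe. It read 10.90, 10.81 and 10.84 in SE-Cre cells, against 11.05, 10.85 and 10.83 in Sox4fl/fl cells, and the groups overlapped. The log2 difference was -0.06 (SE 0.14, 95% confidence interval -0.36 to 0.24, adjusted p = 0.825). In HA-Sox4 cells it read 11.94, 11.94 and 12.04, against 11.66, 11.71 and 11.70 in HA cells, with no overlap. The rise was 1.22-fold (log2 difference 0.28, SE 0.08, 95% confidence interval 0.10 to 0.46, adjusted p = 0.023). It lost its call when HA replicate 1, HA replicate 3 or HA-Sox4 replicate 3 was left out, and when arrays were scaled to a common median.

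**Figure D3:**
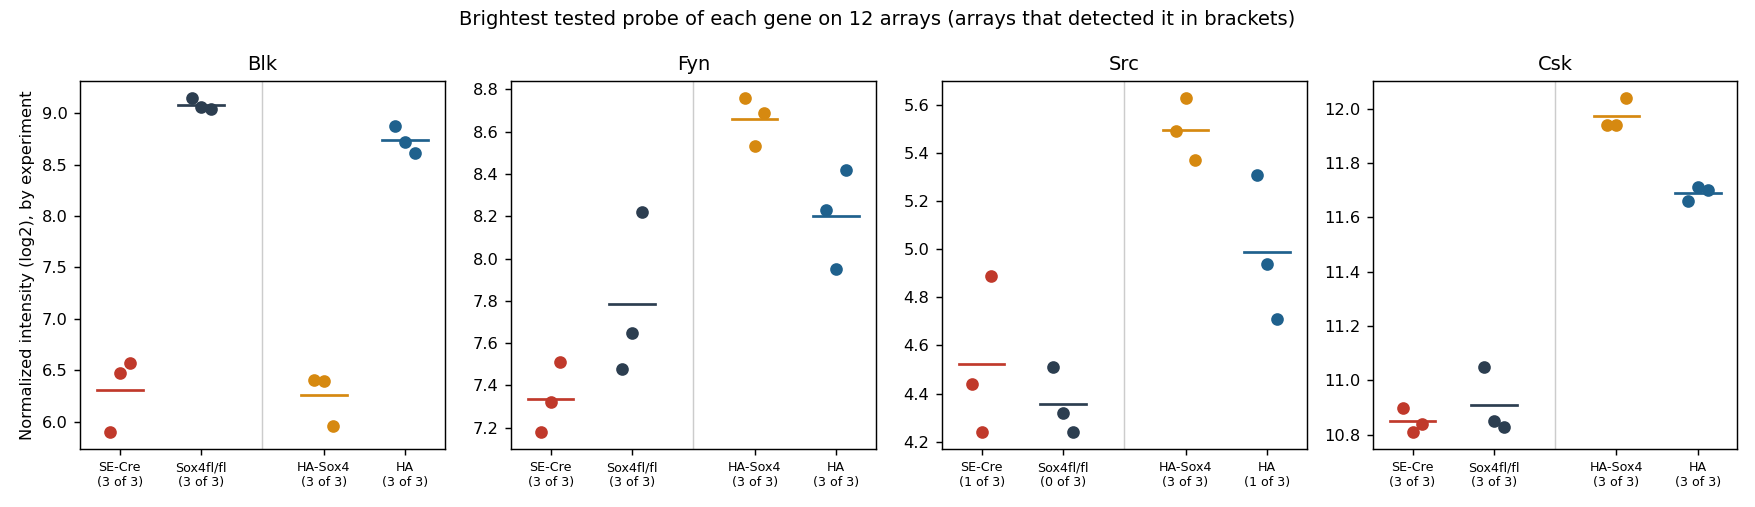
Log2 normalised intensity of the brightest tested probe of Blk, Fyn, Src and Csk on each array, each experiment normalized on its own and each panel with its own vertical range. Points are arrays, bars are group means, and brackets give the arrays of 3 that detected the probe. Blk is lower in SE-Cre and in HA-Sox4 cells by more than 2 log2 units, while the groups of the other genes differ by 0.51 or less.

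Of the member genes, 3 were tested in the loss experiment, of which 1 (Blk) was lower and none higher, beside 16.4% of all tested genes that passed. In the gain experiment 4 were tested and all of these passed, with Blk lower and Fyn, Src and Csk higher, beside 44.2% of all tested genes. The calls of Fyn, Src and Csk were lost in 7 of 16, 11 of 15 and 8 of 16 alternatives, in that order, and those of Blk in none of 16 for either experiment.

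Blk was set against each of the others within arrays, as the change of the log2 difference between their brightest probes. In SE-Cre against Sox4fl/fl cells, Blk changed by -2.32 relative to Fyn and by -2.71 relative to Csk. In HA-Sox4 against HA cells, it changed by -2.94 relative to Fyn, -2.99 relative to Src and -2.77 relative to Csk. The arrays of the compared groups did not overlap in any of these pairs. Each gave p = 0.1 in the two-sided exact permutation test (adjusted p = 0.1 over 2 pairs and over 3 pairs), the smallest p that 3 arrays against 3 allow, so that the test could not pass 0.05.

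Over the 4 groups, on arrays normalized together, Blk averaged 7.03 ± 0.37 in SE-Cre and 9.82 ± 0.05 in Sox4fl/fl cells, and 5.83 ± 0.24 in HA-Sox4 and 8.26 ± 0.14 in HA cells (SD, n = 3 each). From the highest, the order was Sox4fl/fl, HA, SE-Cre and HA-Sox4, and no neighbours in it overlapped. Csk averaged 11.62 ± 0.05 in SE-Cre and 11.68 ± 0.12 in Sox4fl/fl cells, which overlapped, and 11.47 ± 0.06 in HA-Sox4 and 11.19 ± 0.03 in HA cells, which did not. Fyn averaged 8.06 ± 0.16 in SE-Cre and 8.50 ± 0.39 in Sox4fl/fl cells, and 8.18 ± 0.12 in HA-Sox4 and 7.72 ± 0.24 in HA cells, and each neighbour in its order overlapped the next. Primary and immortalized cells belonged to separate experiments, and the sample titles name no array batch. Cell state and any difference between the arrays of the experiments cannot be told apart, and these levels were not tested across them.

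The sequences before the start sites of Fyn, Src and Csk, the members that passed as higher in HA-Sox4 cells, are shown. Whether Sox4, a DNA-binding factor, acts on these genes was not tested. Sox proteins bind DNA through a high mobility group domain that prefers letters such as ACAAAG and ACAATG. RefSeq windows (GRCm38.p6) of 250 bases before to 50 after a start site were found for Src, Fgr, Yes1, Csk and Fyn, 6 windows of 5 genes. No window was found for Blk, so the member that moved most was not searched. The Csk windows at chr9:57653582-57653881 (upstream) and chr9:57645604-57645903 (downstream), the Fyn window at chr10:39369549-39369848 and the Src window at chr2:157424043-157424342 are printed along the gene's own strand, minus for Csk and plus for Fyn and Src, with capitals marking a match to ACAAAG on either strand.
Csk upstream: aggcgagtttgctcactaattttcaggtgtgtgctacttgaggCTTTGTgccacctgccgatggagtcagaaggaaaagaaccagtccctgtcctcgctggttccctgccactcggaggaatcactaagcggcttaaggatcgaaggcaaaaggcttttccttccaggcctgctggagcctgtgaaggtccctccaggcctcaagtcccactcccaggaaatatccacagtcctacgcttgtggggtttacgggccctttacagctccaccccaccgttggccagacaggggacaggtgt
Csk downstream: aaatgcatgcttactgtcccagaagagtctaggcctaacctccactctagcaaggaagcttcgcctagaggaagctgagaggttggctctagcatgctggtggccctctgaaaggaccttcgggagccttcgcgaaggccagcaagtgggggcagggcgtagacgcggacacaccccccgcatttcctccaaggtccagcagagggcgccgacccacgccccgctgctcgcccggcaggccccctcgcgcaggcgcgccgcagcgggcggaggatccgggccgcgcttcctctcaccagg
Fyn: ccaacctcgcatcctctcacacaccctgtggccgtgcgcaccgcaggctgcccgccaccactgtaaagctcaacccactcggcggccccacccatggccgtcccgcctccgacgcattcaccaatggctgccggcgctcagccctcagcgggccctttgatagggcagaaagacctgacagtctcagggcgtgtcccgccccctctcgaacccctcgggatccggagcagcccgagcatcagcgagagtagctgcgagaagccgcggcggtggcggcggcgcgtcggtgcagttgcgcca
Src: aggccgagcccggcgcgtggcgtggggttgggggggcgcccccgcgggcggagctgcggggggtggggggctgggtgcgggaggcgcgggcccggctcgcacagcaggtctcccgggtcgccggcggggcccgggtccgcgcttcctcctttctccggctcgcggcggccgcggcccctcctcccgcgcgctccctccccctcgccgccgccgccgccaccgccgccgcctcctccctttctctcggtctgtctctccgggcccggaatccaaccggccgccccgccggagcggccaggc
ACAAAG, read on both strands, was in 1 of the 6 windows, as CTTTGT in the upstream Csk window, and in 18.7% of 32851 windows of the same length. ACAATG was in none of the 6 and in 12.6% of all windows. These are matches of letters, not sites at which binding was measured.

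Genes whose 12 values ran most like those of Blk were ranked by the root mean square distance of log2 values, each gene centred on its own mean, over 10259 genes. The nearest was Smim41, a small membrane protein gene, at a distance of 0.405, with log2 differences of -2.10 in SE-Cre and -1.98 in HA-Sox4 cells. Scin, which encodes the actin-severing protein scinderin, followed at 0.565 with differences of -1.54 and -1.82. Rpl3l, a ribosomal protein paralog known from muscle, was at 0.654 with -1.44 and -1.67. Calhm6 was at 0.807, 1700048O20Rik at 0.822 and Acss2, an acetyl-CoA synthetase gene, at 0.831. The distance of the nearest gene is about the size of 1 SD of Blk in SE-Cre cells. Acss2 was detected on none of the HA-Sox4 arrays and 1 of 3 HA arrays and was not tested in the gain experiment. Likeness was used to choose these genes, so their differences are given without a test.

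**Figure D4:**
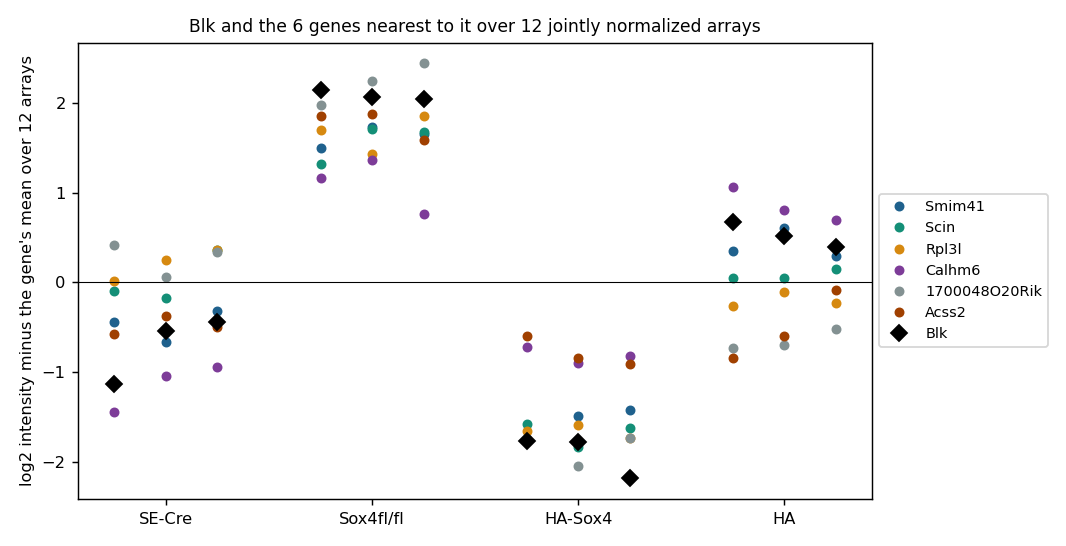
Log2 intensity less the gene's mean over 12 jointly normalized arrays, for Blk (diamonds) and the 6 genes nearest to it (circles), by group. Each column of points is 1 array. Each of these genes has its highest group mean in Sox4fl/fl cells, and Blk has its lowest in HA-Sox4 cells.

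Genes that control Src kinases came next. Of 13 listed adaptors, phosphatases and ubiquitin ligases, 10 were tested in each experiment. In SE-Cre cells 1 passed and was lower and 9 did not pass, beside 16.4% of all tested genes that passed. The median log2 difference was 0.06 beside 0.02 over all genes. In HA-Sox4 cells 3 were higher, 4 were lower and 3 did not pass, beside 44.2% of all tested genes that passed. The median there was -0.07 beside -0.05 over all genes. Ptprc, the phosphatase CD45, passed in neither, at 0.11 (adjusted p = 0.748) in SE-Cre and -0.03 (adjusted p = 0.88) in HA-Sox4 cells. Cblb, a ubiquitin ligase of activated kinases, was 2.79-fold higher in HA-Sox4 cells (log2 difference 1.48, SE 0.10, adjusted p = 3.62e-05). Ptpn12, a phosphatase that binds Csk, was 2.72-fold higher there (1.44, SE 0.12, adjusted p = 0.000128). Ptpn22, another Csk partner and a phosphatase of Src kinases, was 1.69-fold lower (-0.75, SE 0.12, adjusted p = 0.00238), and Ptpra, which can remove the inhibitory tail phosphate, was 1.40-fold lower (-0.49, SE 0.09, adjusted p = 0.006). These 4 calls held when any 1 array was left out. Matk, the Csk-related kinase, was detected on 3 of 3 HA-Sox4 and 0 of 3 HA arrays. It was at least 1.89-fold higher (adjusted p = 2.51e-05 for the fitted log2 difference of 1.53) but 1.46-fold without background correction. Without any 1 of the HA-Sox4 replicates 1, 2 and 3 this probe missed the detection filter. Matk was then read by another probe, and the call was lost. The fall of Ptpn12 in SE-Cre cells (-0.54, adjusted p = 0.0382) was lost without any 1 of the arrays except SE-Cre replicate 2.

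Pre-B cell receptor genes, the setting in which Blk works, were called in both directions. Of 16 genes with a probe, 15 were tested in SE-Cre cells, where 1 was higher, 3 were lower and 11 did not pass, with a median of -0.01 beside 0.02. Of all tested genes 16.4% passed there. In HA-Sox4 cells 5 of 16 were higher, 3 were lower and 8 did not pass, beside 44.2% of all tested genes that passed. The median was -0.05 beside -0.05 over all genes. The tested genes of the receptor itself passed in neither experiment. The surrogate light chain genes Vpreb1 and Igll1 differed by -0.09 and -0.01 in SE-Cre and by -0.07 and 0.01 in HA-Sox4 cells, and the signalling chain gene Cd79b by 0.09 and 0.20. Blnk, the adaptor that Syk phosphorylates, was lower in SE-Cre cells (-0.70, adjusted p = 0.03) and higher in HA-Sox4 cells (1.29, adjusted p = 0.000466). Its fall was no longer called once Sox4fl/fl replicate 1, Sox4fl/fl replicate 2 or SE-Cre replicate 1 was left out. Lcp2, the SLP-76 adaptor, was higher in both (1.21, adjusted p = 0.000964, and 0.94, adjusted p = 0.000419), its 2.32-fold rise in SE-Cre cells being 1.51-fold without background correction. Vav3, a guanine nucleotide exchange factor, was 2.6-fold lower in SE-Cre cells by its brightest probe (-1.38, adjusted p = 0.000311). That probe did not pass in HA-Sox4 cells (-0.33, adjusted p = 0.0557). Over all its tested probes, 1 of 2 passed as lower in SE-Cre and 1 of 3 in HA-Sox4 cells. Syk, the kinase that acts after the Src kinases, was 2.03-fold lower in HA-Sox4 cells (-1.02, adjusted p = 0.00387), and Plcg2, a phospholipase further down, was 2.18-fold lower (-1.12, adjusted p = 5.12e-05). Neither passed in SE-Cre cells, at 0.37 (adjusted p = 0.153) for Syk and -0.07 (adjusted p = 0.799) for Plcg2. Bank1, an adaptor known from human B cells to bind Blk, was detected on 3 of 3 HA-Sox4 and 0 of 3 HA arrays. It was at least 9.44-fold higher (adjusted p = 4.55e-07 for the fitted log2 difference of 3.91) but 3.93-fold without background correction, and was not tested in the loss experiment.

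Inhibitory receptors and phosphatases, on many of which Src kinases phosphorylate the inhibitory motif, were tested for 11 of 14 genes with a probe. In SE-Cre cells 2 were higher, 2 were lower and 7 did not pass (median 0.16), beside 16.4% of all tested genes that passed. In HA-Sox4 cells 4 were higher, 5 were lower and 2 did not pass (median -0.06), beside 44.2% of all tested genes that passed. Pecam1, an adhesion receptor with such a motif, was 6.94-fold lower in SE-Cre cells (-2.80, SE 0.16, adjusted p = 1.95e-07), or 3.52-fold without background correction. In HA-Sox4 cells it was 1.34-fold higher (0.43, SE 0.09, adjusted p = 0.00913), a call lost with the mean of its 3 probes. Cd22, a B cell receptor for sialic acid, was detected on 3 of 3 HA-Sox4 and 0 of 3 HA arrays. It was at least 8.48-fold higher (adjusted p = 1.26e-06 for the fitted log2 difference of 3.43) but 3.24-fold without background correction. Ptpn6, the phosphatase SHP-1 that such receptors recruit, was lower in SE-Cre cells (-0.77, adjusted p = 0.00234) and higher in HA-Sox4 cells (0.70, adjusted p = 0.00048). Inppl1, the lipid phosphatase SHIP2, was 3.40-fold higher in SE-Cre cells (1.77, adjusted p = 1.66e-05) and stood at 0.09 (adjusted p = 0.387) in HA-Sox4 cells. The docking protein genes differed among themselves in HA-Sox4 cells, where Dok1 (-0.65, adjusted p = 0.00268) and Dok3 (-1.16, adjusted p = 7.43e-05) were lower. Dok2 was at least 2.05-fold higher there (adjusted p = 0.000153 for the fitted log2 difference of 1.56), or 1.47-fold without background correction. In SE-Cre cells Dok1 was instead higher (0.86, adjusted p = 0.00157). Each "at least" is a bound on background-corrected values only.

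Other cytoplasmic tyrosine kinases gave 10 tested genes in SE-Cre cells, 1 higher, 1 lower and 8 not past the threshold, with a median of -0.03. Of all tested genes 16.4% passed there. In HA-Sox4 cells 1 of 11 was higher, 4 were lower and 6 did not pass, with a median of -0.06, beside 44.2% of all tested genes that passed. Tyk2, a cytokine receptor kinase, was lower in both by its brightest probe (-0.91, adjusted p = 0.00119 in SE-Cre and -0.62, adjusted p = 0.0054 in HA-Sox4 cells). Of its 3 tested probes, 1 passed as lower in SE-Cre and 2 in HA-Sox4 cells. Zap70, the relative of Syk known from T cells, was 2.97-fold lower in HA-Sox4 cells (-1.57, adjusted p = 0.00205), or 1.60-fold without background correction. In SE-Cre cells Zap70 stood at 0.47 (adjusted p = 0.0404), a call lost when any 1 array was left out. Jak2 was higher (0.62, adjusted p = 0.00197) and Jak3 lower (-0.92, adjusted p = 0.000542) in HA-Sox4 cells. Tec and Btk, kinases of the family that Src kinases activate, passed in neither experiment, at -0.08 and 0.27 in SE-Cre and -0.06 and -0.03 in HA-Sox4 cells.

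**Figure D5:**
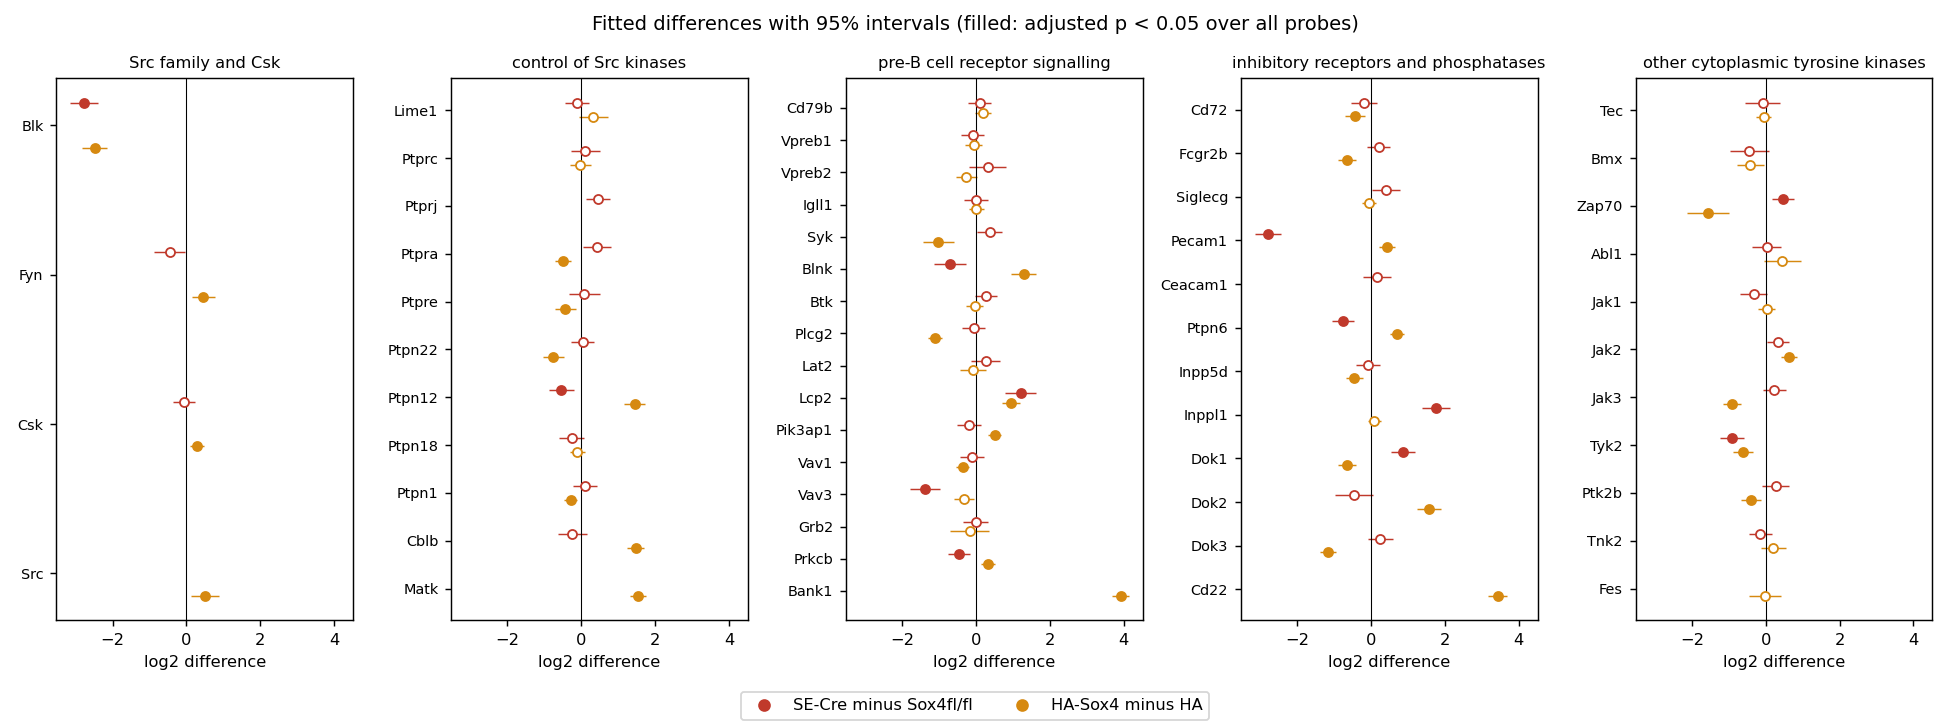
Fitted log2 differences with 95% confidence intervals for every tested member and every tested gene of the 4 lists, SE-Cre minus Sox4fl/fl and HA-Sox4 minus HA. Filled points passed the threshold over all probes. Points of Matk, Bank1, Cd22 and Dok2 in the gain experiment rest on a group that no array detected and show the fitted value, not the bound given in the text. Blk is the one member past the threshold in both experiments, and it is lower in both.

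Genes listed as markers of other cell types moved beside these differences, and their part in them was not tested. The lists were set by name, and a change in 1 listed gene does not show that cells of that type were present. The 13 genes listed for T and NK cells summed to 409 to 477 (linear normalised intensity) in SE-Cre and 430 to 473 in Sox4fl/fl cells, and to 1080 to 1160 in HA-Sox4 and 346 to 363 in HA cells. Of the 13, only Cd2 and Nkg7 were detected on 3 of 3 HA-Sox4 arrays, and 10 were detected on none of them. In SE-Cre cells 4 of the 13 were tested and 3 passed, beside 16.4% of all tested genes. Klrd1 was 3.34-fold lower (adjusted p = 2.26e-05), or 1.71-fold without background correction. Cd2 was lower (-0.52, adjusted p = 0.0358) and Bcl11b higher (0.56, adjusted p = 0.014), and both calls were lost without background correction. That of Cd2 was also lost without any 1 array except SE-Cre replicate 2, and that of Bcl11b without Sox4fl/fl replicate 1. In HA-Sox4 cells 2 of the 13 were tested and both passed, beside 44.2% of all tested genes. The other 11 were not detected enough to be tested, so these calls say nothing about the list as a whole. Cd2, detected on 0 of 3 HA arrays, met the detection filter through HA-Sox4 cells alone. Cd2 was at least 15.8-fold higher (adjusted p = 6.83e-07 for the fitted log2 difference of 4.59) and Nkg7 higher by 2.17 log2 units (adjusted p = 3.4e-05), or 5.85-fold and 2.14-fold without background correction. The defining genes Cd3d, Cd3e and Cd3g were not detected on any array. The 11 myeloid markers summed to 435 to 470 in SE-Cre and 254 to 278 in Sox4fl/fl cells, and to 303 to 347 in HA-Sox4 and 640 to 725 in HA cells. Lyz2 was the only myeloid marker detected on all arrays of any group (1.97, adjusted p = 2.58e-06 in SE-Cre and -2.52, adjusted p = 4.47e-05 in HA-Sox4 cells), and its 3.93-fold and 5.75-fold changes were 2.42-fold and 2.96-fold without background correction. Of the mast cell and megakaryocyte markers, Mcpt8 was at least 4.07-fold lower in HA-Sox4 cells (adjusted p = 1.43e-05 for the fitted log2 difference of -2.64), or 2.16-fold without background correction. Pro-B markers summed to 38700 to 42600 in SE-Cre and 41700 to 44900 in Sox4fl/fl cells, and to 81300 to 85100 in HA-Sox4 and 84400 to 90700 in HA cells. Of 12 pro-B markers tested, 2 were higher and 4 lower in SE-Cre cells, and 4 were higher and 2 lower in HA-Sox4 cells. Of all tested genes 16.4% passed in SE-Cre and 44.2% in HA-Sox4 cells. In SE-Cre cells only 2 of the 6 calls, those of Pax5 and Rag1, were not lost when 1 array was left out. None of the 6 calls in HA-Sox4 cells was lost in this way. Pax5 in SE-Cre and Dntt in HA-Sox4 cells could be tested in only 3 of these 6 cases. Pax5 and Dntt in the loss experiment, and Dntt in the gain experiment, met the detection filter through 1 group alone. Kit, the stem cell factor receptor, was 4.92-fold higher in HA-Sox4 cells (adjusted p = 3.03e-05), or 2.58-fold without background correction, and Cd93 was 1.62-fold lower (adjusted p = 0.00054). Kit was also higher in SE-Cre cells (0.48, adjusted p = 0.0462), a call lost without any 1 array except SE-Cre replicate 3.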

How the data were processed

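Non-normalized probe intensities, linear by their values, were deposited by the authors with a detection p-value beside each intensity, per the file headers. Their processed intensities, also deposited, served only as an alternative. R 3.0.1 is named without a role in the submitters' processing notes, and the sources used here do not give the bead summarization. Median intensity was between 83.4 and 90.2 on the loss arrays and between 114.5 and 139.2 on the gain arrays, and 36.1% to 40% of probes were detected. The 3 arrays per group limit the precision.

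Each experiment was normalized alone with limma 3.58.1 (R 4.3.3), whose neqc function corrects the background from negative controls it infers by way of the detection p-values, adds an offset (16), normalizes quantiles and returns log2 values. Probes had to be detected (p under 0.05) on 3 or more of the 6 arrays to be tested. Groups were compared with lmFit and eBayes, with Benjamini-Hochberg adjustment over all tested probes and a threshold of 0.05. A gene is represented by its brightest tested probe. Of the probes, 34885 carried 1 gene symbol, 18 several and 10378 none, and symbols were updated through their Entrez ID. For a group that no array detected, its values were raised to the array's lowest detected signal, and the fold is given as "at least". The adjusted p beside such a fold belongs to the fitted difference, not to the bound. Such genes met the detection filter through the other group alone. The difference between experiments and the levels over 4 groups come from all 12 arrays normalized together, tested where detected on at least 3 of 12. The fits were tested on simulated data.

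The members and lists were chosen with earlier results of these data known. Named were Sox4, the members with every probe, list genes past the threshold or with the smallest p, and the 6 genes nearest to Blk. Tec and Btk, Ptprc, Vpreb1, Igll1 and Cd79b were named for their role. Same-numbered replicates did not deviate together (correlations between -0.02 and 0.04), so the numbers were not taken to pair samples.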

Additional observations from a re-analysis of the deposited data

Results flagged for a closer look

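Of Sox4, the members and the genes of the 4 signalling lists, those tested in both experiments were examined. These were at most 3 members and 10 control, 15 pre-B cell receptor, 11 inhibitory and 10 other kinase genes, the numbers tested in the loss experiment. For 15 genes the difference between groups was not the same in the experiments, beside 19.9% of all 10259 genes that passed this test. The test was of that difference itself, the HA-Sox4 minus HA difference less the Sox4fl/fl minus SE-Cre difference on 12 arrays normalized together. Among the members this was Blk at -5.23 (adjusted p = 9.98e-09), which ranked 32 by p among all genes, and Sox4 itself stood at -5.91 (adjusted p = 9.98e-09), its rise in HA-Sox4 cells being smaller than its fall in SE-Cre cells. Among genes that control Src kinases it was Ptpn22 at -0.70 (adjusted p = 0.0125), Ptpn12 at 0.91 (adjusted p = 0.00749) and Cblb at 1.25 (adjusted p = 0.00138). Among pre-B cell receptor genes it was Plcg2 at -1.18 (adjusted p = 8.08e-05), Lcp2 at 2.12 (adjusted p = 4.38e-05) and Vav3 at -1.69 (adjusted p = 0.000322). Among inhibitory receptors and phosphatases it was Pecam1 at -2.41 (adjusted p = 1.8e-06), Inppl1 at 1.85 (adjusted p = 2.82e-05) and Dok3 at -0.89 (adjusted p = 0.00296). Among the other cytoplasmic tyrosine kinases it was Zap70 at -0.96 (adjusted p = 0.0199), Jak2 at 0.97 (adjusted p = 0.000778), Jak3 at -0.67 (adjusted p = 0.0147) and Tyk2 at -1.53 (adjusted p = 8.08e-05). By their brightest probes, Blk, Lcp2 and Tyk2 passed in the same direction in both experiments. Blk and Tyk2 were lower and Lcp2 higher in SE-Cre and in HA-Sox4 cells. Of the 3 tested Tyk2 probes, only 1 passed in SE-Cre cells. Groups of 3 arrays were too small for a search for single outlying samples. Outside that selection, Matk (1.68), Bank1 (3.49) and Cd22 (3.22), each tested in the gain experiment only, also stood above 0 in this contrast. Each was detected on 3 of 3 HA-Sox4 and 0 of 3 HA arrays, and on too few loss arrays to be tested there. They met the detection filter mainly through HA-Sox4 cells, so no call is drawn from these values, which are fitted near background in the other groups.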

How the results depend on the processing

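The falls of Blk held their direction and call in each of 16 alternatives per experiment, with log2 differences between -2.89 and -2.05 in SE-Cre and between -2.57 and -1.55 in HA-Sox4 cells, and its difference between experiments lay between -5.36 and -3.65 over 15. Of 65 named differences that passed, 18 lost their call when some 1 array was left out (Matk through a change of probe), 4 lost it without background correction, and 20 moved by over 1.5 times without it. None of these changed sign there. The cause was not tested. The loss count of 1469 genes lay between 941 and 1177 with 1 array left out, and the gain count of 4085 between 3122 and 3524. With a limit of 1.5-fold, which drops smaller differences by construction, the gain count was 2203 (1226 higher, 977 lower). Scaling to a common median gave 1870 higher and 1396 lower genes in the gain experiment, and fitting all 12 arrays together gave 1036 higher and 1149 lower in the loss experiment. With the replicate number as a replicate block, the counts were 1393 and 3637 genes, and Prkcb and Zap70 in SE-Cre and Csk, Sox4, Ptpn1 and Cd72 in HA-Sox4 cells lost their calls (Csk adjusted p = 0.0594). Without background correction, Blk averaged 7.77 in SE-Cre, 9.95 in Sox4fl/fl, 7.16 in HA-Sox4 and 8.62 in HA cells, Fyn 8.46 in SE-Cre, 8.56 in HA-Sox4 and 8.22 in HA cells, and Csk 11.24 in HA cells. Differences near 0 turned sign. Csk in SE-Cre cells stood at 0.011 without Sox4fl/fl replicate 1, and Fyn between experiments at -0.0077 without background correction, at -0.13 without Sox4fl/fl replicate 1, -0.05 without Sox4fl/fl replicate 2, -0.06 without SE-Cre replicate 3, -0.10 without HA replicate 2 and -0.03 without HA-Sox4 replicate 1, the highest value with 1 array left out being 0.24. Leaving out a HA-Sox4 array left Sox4, Bank1, Cd22, Dok2, Cd2 and Dntt untested in the gain experiment.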
